A study of Homo sapiens with 9 samples.

Results

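The genes described here encode splicing factors and proteins of the small nuclear ribonucleoproteins (snRNPs). They were chosen by symbol: every gene named alone by at least 1 probe set (a group of array probes read as 1 value) whose symbol starts with LSM and a digit, SNRP, SRSF, SF3A, SF3B, PRPF or HNRNP. This gave 77 genes out of 19775 with such a probe set, with 209 probe sets in all. By prefix there were 13 SNRP, 13 LSM, 3 SF3A, 6 SF3B, 11 PRPF, 10 SRSF and 21 HNRNP genes. Where a gene had several, the brightest over the 9 arrays stood for it. Of the 77 genes, 74 code for proteins, and the other 3 (HNRNPA3P1, a pseudogene, and the divergent transcripts HNRNPD-DT and SNRPF-DT) share only the prefix. Genes that the array names only together with another gene, such as SRSF2 and SRSF9, are not analysed here.

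The cells were MCF10A, a non-tumorigenic human mammary epithelial line that is cultured with EGF, the ligand of the EGF receptor. The arrays form 3 groups of 3. Vector cells carried the empty retrovirus pBabe, the second group carried pBabe with ErbB2, a receptor tyrosine kinase of the EGF receptor family, and the EGF group carried the empty virus and was given 50 ng/ml EGF 2 h before the cells were collected. After infection every culture was moved to EGF-free medium containing 2% horse serum, so the vector group was itself deprived of its growth factor. The labels call the replicates biological but do not say whether each came from its own infection, so the tests reflect only the spread among these samples, which may be technical.

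Pre-mRNA splicing removes introns in the spliceosome, which is built from the U1, U2, U4, U5 and U6 snRNPs. Each U1, U2, U4 and U5 RNA is wrapped by a ring of Sm proteins, while U6 carries a related ring of LSM proteins. The SF3A and SF3B complexes place U2 on the branch point of the intron, and PRPF proteins bring in and activate the U4, U5 and U6 particles. SR proteins (SRSF) mostly mark exons for inclusion, and heterogeneous nuclear ribonucleoproteins (HNRNP) coat the transcript and often oppose them. Several SR and HNRNP genes are known to regulate their own transcripts by alternative splicing, so probe sets on different parts of such a gene can read different RNAs.

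Signals are the authors' MAS5 values on a linear scale, and changes are on the log2(signal + 16) scale, which understates changes of dim genes. The brightest probe sets of 76 of the 77 genes passed a filter on low means. SNRPN, the relative of SNRPB known from neurons, did not pass, with signals between 0.956 and 18.2 on the 9 arrays. A change was called at a Benjamini-Hochberg adjusted p under 0.05, with limma, over all 32768 probe sets tested, and every adjusted p given below comes from that fit.

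Median signals over all probe sets were 19.9 to 20.2 on vector arrays, 17.9 to 20.1 on the arrays labelled ERBB2 and 15.6 to 16.9 with EGF. The brightest ERBB2 probe set read 174 ± 48 (SD, n = 3) in vector cells and 98.8 ± 23.1 in the arrays labelled ERBB2, while a dimmer one read 12.6 ± 8.78 and 35.6 ± 2.51. The array did not settle that label, so the group is called "labelled ERBB2". The same arrays stood apart in 2 quality measures. For ACTB, the 5' control probe set divided by the 3' one gave 0.701 to 0.796 there, against 0.325 to 0.436 in vector arrays and 0.378 to 0.505 with EGF. The 3' control for 18S RNA read 11926 to 13513, against 1945 to 4569.7 and 2103 to 3369. The same ratio for GAPDH did not set them apart. It was 0.838 to 0.901 there, against 0.821 to 0.885 in vector arrays and 0.762 to 0.85 with EGF. The ACTB and 18S values move with every result for the arrays labelled ERBB2, and their part in the results was not tested. All 6 epithelial markers measured alone (KRT5, KRT14, CDH1, EPCAM, ITGA6 and EGFR) passed the filter. Their summed signal was 18777 to 20938 in vector arrays, 10962 to 11855 in the arrays labelled ERBB2 and 15657 to 18557 with EGF. KRT5 was the largest part, with means of 11864, 6227 and 8847. KRT14 went from 2640.3 to 149 and 1758 (-4.00 and -0.57). In the arrays labelled ERBB2 66.7% of these markers were called lower and 16.7% higher, against 25.1% and 20.8% of all genes. With EGF it was 50.0% and 33.3%, against 19.0% and 17.2%. Of 7 fibroblast markers 3 passed, and most of their summed signal (1371 to 1519 in vector arrays, 399 to 578 and 511 to 565 in the others) was DCN. Of 7 blood and endothelial markers 2 passed, with sums of 217 to 247, 259 to 287 and 245 to 266, mostly CD14, and PTPRC, CD3E, LYZ, CDH5 and VWF did not pass. The endothelial and platelet marker PECAM1 rose from 29 to 90.1 in the arrays labelled ERBB2 (1.27, adjusted p = 7.803e-05) and was at 39.9 with EGF, and its part in the results was not tested. Cell numbers and RNA per cell cannot be told apart in such bulk samples.

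The arrays labelled ERBB2 had higher signals than vector arrays for most splicing genes. Of the 76 tested, 48 rose and 7 fell, or 63.2% and 9.21%, against 20.8% and 25.1% of all 13723 genes tested (45.9% in either direction). The arrays of both groups did not overlap for 55 members, against 52.7% of all genes. Their median log2 change was 0.47, against -0.07 for all genes. Changes were moderate: 8 members rose by at least 2-fold and none fell that far, against 6.30% and 7.13% of all genes. Array by array, the median of the 76 differences from the vector mean was 0.47, 0.50 and 0.44 in the arrays labelled ERBB2 and 0.25, 0.30 and 0.35 with EGF. On single vector arrays it lay between -0.01 and 0.01, so every treated array stood above every vector array. The vector arrays are part of the mean they were set against, which makes their own values small. Those values are therefore no measure of spread for the treated arrays.

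With EGF for 2 h, 37 of the 76 members rose and 3 fell, or 48.7% and 3.95%, against 17.2% and 19.0% of all genes (36.2% in either direction), and 46 did not overlap with vector, against 48.8%. The median change was 0.29, against -0.10 for all genes, and 4 members rose by at least 2-fold and none fell that far, against 3.34% and 3.18% of all genes. This direction also held with equal array medians, where 49 members rose, 1 fell and the median was 0.45, while the median of all genes moved to 0.06. The share of rises among called genes went from 47.6% to 67.9% over all genes and from 92.5% to 98.0% among members. The median was lower, at 0.17, with the probe sets of each gene averaged (33 rises and 2 falls) and 0.19 with the brightest probe set without the suffix _x_at or _s_at (27 rises and 3 falls). Both comparisons share the vector arrays, so they are not independent. The plot of all members shows both changes side by side.

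**Figure D1:**
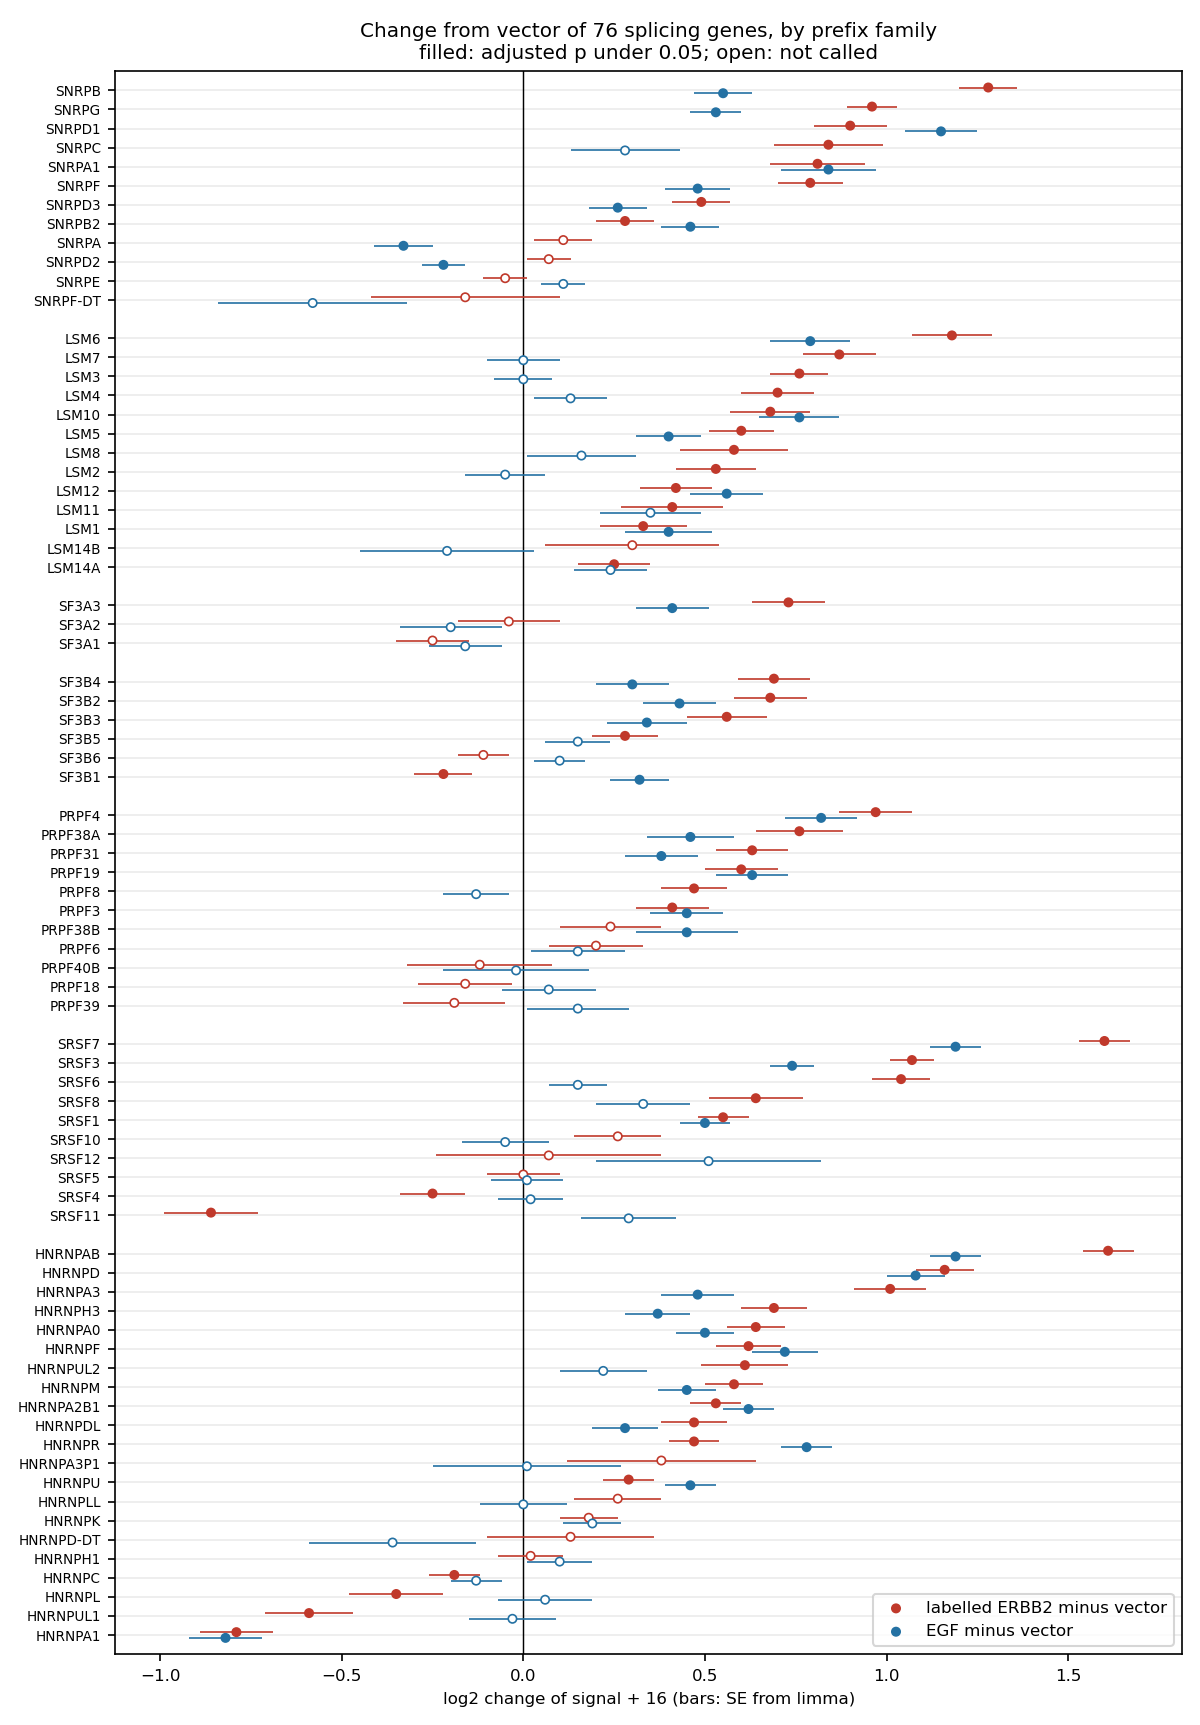
Log2 change from vector (horizontal axis, log2 of signal + 16) of the 76 tested genes, in rows by prefix family, for the arrays labelled ERBB2 (red) and with EGF (blue), with SEs from limma as bars and filled points where the adjusted p was under 0.05. Most filled points lie right of 0, and SRSF11 at -0.86 in red and HNRNPA1 at -0.79 and -0.82 lie farthest left.

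HNRNPAB, a DNA- and RNA-binding protein related to HNRNPD, was the member that rose most in the arrays labelled ERBB2. It read 1479, 1502 and 1607 on vector arrays, 4932, 4462 and 4677 on the arrays labelled ERBB2 and 3441, 3562 and 3531 with EGF. The groups did not overlap. The log2 changes were 1.61 ± 0.07 (SE, adjusted p = 3.532e-13) and 1.19 ± 0.07 (adjusted p = 9.465e-11). SRSF7, an SR protein with a zinc knuckle, came next. Its signals were 988, 1008 and 915, then 2774, 3159 and 3002, then 2165, 2309.8 and 2209, again with no overlap, for changes of 1.60 ± 0.07 (adjusted p = 1.535e-12) and 1.19 ± 0.07 (adjusted p = 3.624e-10). HNRNPD, also called AUF1, binds AU-rich elements of unstable mRNAs. It rose from 1206 ± 75.9 (SD, n = 3) to 2721 ± 202 and 2559.9 ± 32.5 (changes of 1.16 and 1.08). SNRPB and SRSF11 are described with their families below.

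The 150 bases before the annotated start of these 5 genes are shown because the results return to these members: HNRNPAB, SRSF7 and HNRNPD, the SNRP gene that rose most and the member that fell most in the arrays labelled ERBB2 (RefSeq, GRCh38.p14). HNRNPAB lies on the plus strand (chr5:178204383-178204532), HNRNPD on the minus strand (chr4:82373992-82374141), SRSF7 on the minus strand (chr2:38751495-38751644), SNRPB on the minus strand (chr20:2470790-2470939) and SRSF11 on the plus strand (chr1:70221230-70221379). Sequences run 5′ to 3′ on the strand of the gene, and capitals mark every match, on either strand, to CACGTG (the E-box), CCAAT (the CCAAT box), CCGGAAG (a core bound by ETS factors) or TATAAA (the TATA box). No marked matches overlap.
HNRNPAB: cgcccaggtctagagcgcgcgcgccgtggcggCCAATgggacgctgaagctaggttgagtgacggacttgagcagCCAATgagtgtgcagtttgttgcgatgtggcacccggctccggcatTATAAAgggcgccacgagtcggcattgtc
HNRNPD: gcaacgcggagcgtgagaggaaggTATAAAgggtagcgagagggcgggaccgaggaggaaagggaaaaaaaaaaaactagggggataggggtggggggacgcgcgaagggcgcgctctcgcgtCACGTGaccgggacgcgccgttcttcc
SRSF7: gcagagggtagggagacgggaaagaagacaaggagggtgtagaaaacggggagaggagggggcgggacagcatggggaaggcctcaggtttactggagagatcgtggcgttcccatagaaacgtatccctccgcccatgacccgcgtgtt
SNRPB: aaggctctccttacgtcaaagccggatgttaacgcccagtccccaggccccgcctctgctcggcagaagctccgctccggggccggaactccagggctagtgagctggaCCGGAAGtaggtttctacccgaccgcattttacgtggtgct
SRSF11: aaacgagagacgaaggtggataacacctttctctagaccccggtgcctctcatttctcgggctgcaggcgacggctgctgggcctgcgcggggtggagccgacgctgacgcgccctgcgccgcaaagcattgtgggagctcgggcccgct

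In HNRNPAB the TATAAA match began 29 bases before the start and the CCAAT matches 75 and 118 bases before it. The E-box of HNRNPD began 27 bases and the CCGGAAG of SNRPB 41 bases before the start. The printed stretches of SRSF7 and SRSF11 held no marked match. Promoters of 300 bases (250 before and 50 after the start) were found for 66 of the 74 coding members. CCGGAAG was in 22 of the 66, or 33.3%, against 10.7% of all 27305 promoters in the table and 18.4% of those of 10341 tested coding genes. It was in 12 of 42 members that rose in the arrays labelled ERBB2 and in 9 of 17 that were not called there. CCAAT was in 45.5% of members, against 35.7% and 36.7%, and the E-box in 10.6%, against 7.43% and 10.0%. GGGCGG was in 63.6%, against 44.6% and 68.2%. TATAAA was in 6 of 66 members, 3264 of the 27305 promoters and 645 of the 10341 of tested coding genes. A match is a description of letters, not of binding.

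Among the SNRP genes, 8 of 12 tested rose in the arrays labelled ERBB2 and none fell (66.7% higher, against 20.8% of all genes). With EGF 7 rose and 2 fell (58.3% and 16.7%, against 17.2% and 19.0%). SNRPB encodes the Sm ring proteins B and B'. It read 1308, 1477 and 1328 on vector arrays, 3050.2, 3701 and 3339 on the arrays labelled ERBB2 and 2004, 2118 and 1929 with EGF. The 3 groups did not overlap, and the changes were 1.28 ± 0.08 (SE, adjusted p = 1.346e-10) and 0.55 ± 0.08 (adjusted p = 2.45e-05). SNRPD1, another ring subunit, had the largest EGF change of the family. Its signals were 1124, 959 and 969, then 1607, 2237 and 1949, then 2222, 2236 and 2339. Both treated groups lay above vector and overlapped each other (changes of 0.90 and 1.15). SNRPG rose by 0.96 and 0.53, SNRPF by 0.79 and 0.48 and SNRPD3 by 0.49 and 0.26. The EGF call of SNRPD3 was lost in 6 of 21 alternatives (range of adjusted p 8.609e-04 to 0.152), namely with quantile normalization, without a variance trend, and without vector replicate 1 (0.24, adjusted p = 0.06312), vector replicate 3 (0.25, 0.073), EGF replicate 2 (0.25, 0.06382) or EGF replicate 3 (0.18, 0.152).

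Not every ring subunit rose in the main fit. SNRPE read 6097 ± 160.1 (SD, n = 3), 5877 ± 301 and 6584 ± 93.8 in the vector, labelled ERBB2 and EGF groups. It was called in neither comparison (-0.05 and 0.11, adjusted p = 0.5333 and 0.1962). With EGF it was called higher under quantile normalization (0.23, adjusted p = 0.001814) and equal array medians (0.27, 0.003812). SNRPD2 was not called in the arrays labelled ERBB2 (0.07, adjusted p = 0.3921), but was called higher there with quantile normalization (0.22, adjusted p = 0.001424). It fell with EGF, from 5291, 5869.7 and 5668 to 4711, 4809 and 4897 (-0.22 ± 0.06, adjusted p = 0.01061). All 3 EGF arrays lay below all vector arrays. The call of this fall ended with equal array medians (-0.06, adjusted p = 0.5614) and without a variance trend (-0.22, 0.1465).

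Of the proteins specific to U1, SNRPC (U1-C) rose in the arrays labelled ERBB2, from 369 ± 38.3 to 680.0 ± 126 (0.84, adjusted p = 1.734e-04), and stood at 459 ± 130.1 with EGF (0.28, adjusted p = 0.2019, but called with equal array medians at 0.44, adjusted p = 0.04582). SNRPA (U1-A) read 995, 1134 and 1076 on vector arrays and 801, 863 and 869.8 with EGF, without overlap. It fell there by 0.33 on the log2 scale (adjusted p = 0.004201). That call ended with equal array medians (-0.17, adjusted p = 0.171) and without a variance trend (-0.33, 0.05523). SNRPA was not called in the arrays labelled ERBB2 (0.11). The U2 proteins rose in both comparisons: SNRPA1 (U2-A′) by 0.81 and 0.84, and SNRPB2 (U2-B′′) by 0.28 and 0.46. For SNRPA1 the brightest probe set without the suffix _x_at or _s_at showed neither change (-0.07, adjusted p = 0.8212, and 0.02, adjusted p = 0.9563). A dim second SNRPB2 probe set, with a vector mean of 33.7, was called the other way (-0.74 and -0.82). SNRPF-DT, dim on all arrays (group means of 20.6 to 37.8), was not called.

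**Figure D2:**
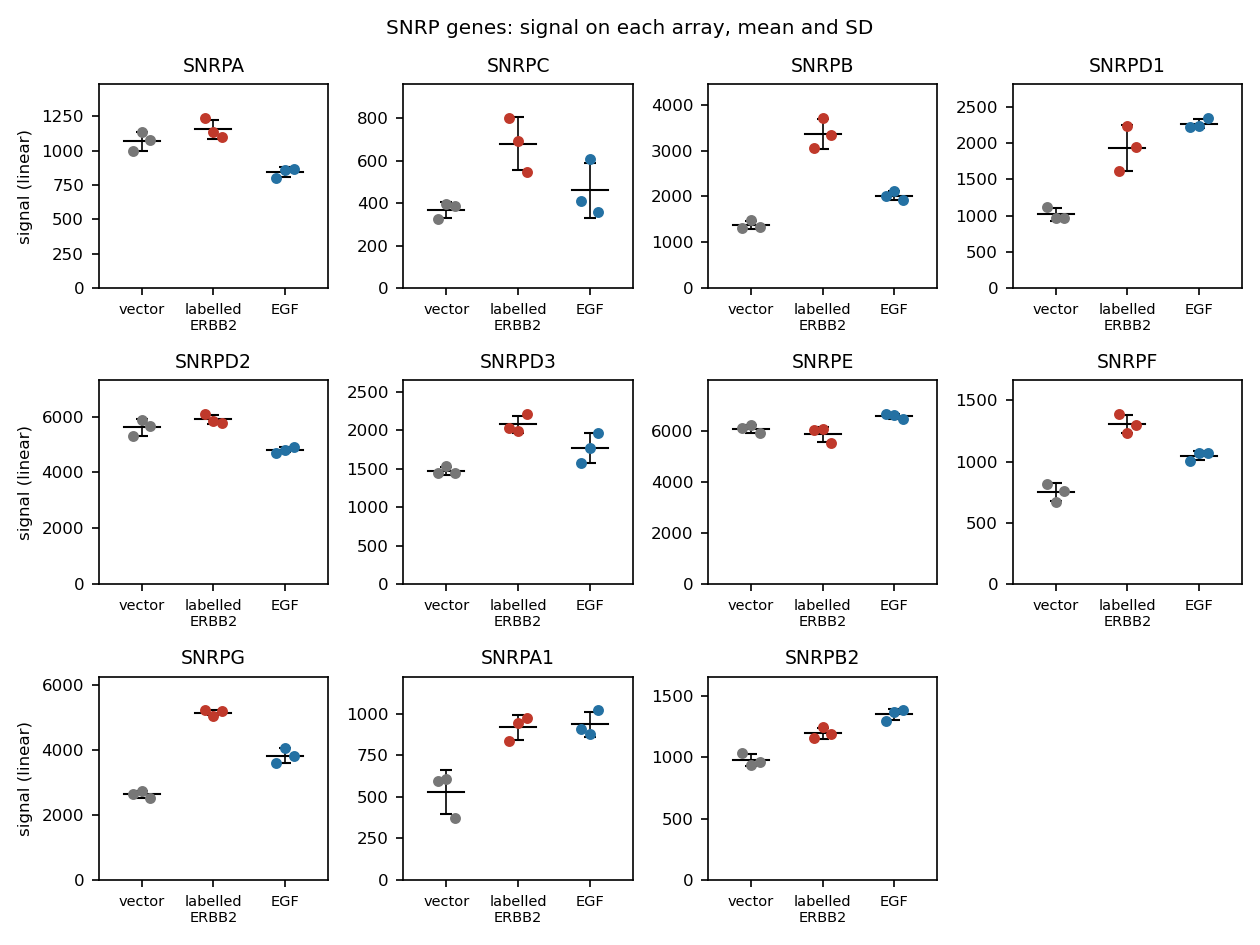
Linear signal (vertical axes, each from 0 and on its own scale) of 11 SNRP genes on each of the 9 arrays, as points, with the group mean and SD in black. The groups of SNRPB and SNRPG are separate from each other, while those of SNRPE lie close together.

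Of the 13 LSM genes, 12 rose in the arrays labelled ERBB2 and none fell (92.3% higher, against 20.8% of all genes), with a median of 0.58. With EGF 5 rose and none fell (38.5%, against 17.2%), with a median of 0.24, and the counts of both comparisons were not tested against each other. LSM7, a subunit of both LSM rings, read 1184, 1459 and 1282 on vector arrays, 2639, 2574 and 2023 on the arrays labelled ERBB2 and 1299, 1259.8 and 1355 with EGF. Only the arrays labelled ERBB2 stood apart (0.87 ± 0.10 SE, adjusted p = 4.263e-07, against 0.00 ± 0.10 with EGF). LSM3, also in both rings, read 1063 ± 55.2 (SD, n = 3), 1816 ± 53 and 1065 ± 117 (0.76 and -0.00). LSM4 rose by 0.70 and LSM2 by 0.53 in the arrays labelled ERBB2, against 0.13 (adjusted p = 0.3807) and -0.05 (adjusted p = 0.7814) with EGF. The direct test between the treatments called all 4: LSM7 by 0.87, LSM3 by 0.77, LSM2 by 0.59 and LSM4 by 0.57 higher in the arrays labelled ERBB2, in all 21 alternatives tried.

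Of the other ring subunits, LSM1, LSM5 and LSM6 were called with both treatments and LSM8 only in the arrays labelled ERBB2. LSM6 went from 195, 185 and 191 to 412, 423 and 524 in the arrays labelled ERBB2 and to 315, 349 and 358 with EGF (1.18 and 0.79). These groups did not overlap. LSM5 rose by 0.60 and 0.40, and without the suffixes _x_at and _s_at was called in neither (0.41, adjusted p = 0.149, and 0.26, adjusted p = 0.4172). LSM8, the subunit particular to the nuclear ring that binds U6, rose in the arrays labelled ERBB2 (449 ± 66.8 to 685 ± 164, 0.58 ± 0.15, adjusted p = 0.003427) and was at 503 ± 64.2 with EGF (0.16, adjusted p = 0.4519). Its 3 further probe sets, all dim, were not called, and with probe sets averaged the call of LSM8 was lost (0.02, adjusted p = 0.93). LSM1 replaces LSM8 in the cytoplasmic ring that promotes mRNA decapping. Its changes were 0.33 (adjusted p = 0.03046) in the arrays labelled ERBB2 and 0.40 (adjusted p = 0.01369) with EGF, both called. The first was lost in 6 of 21 alternatives (range of adjusted p 0.01099 to 0.2063), such as those without vector replicate 2 (0.26, adjusted p = 0.1239), vector replicate 3 (0.34, 0.05889) or ERBB2 replicate 2 (0.20, 0.2063). The second ended without a variance trend (0.40, adjusted p = 0.09845). It also ended without vector replicate 2 (0.33, adjusted p = 0.06534), EGF replicate 1 (0.35, 0.06192) or EGF replicate 2 (0.35, 0.06548).

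LSM10 and LSM11 belong to the U7 snRNP, which processes the 3' ends of replication-dependent histone mRNAs. LSM10 read 216 in vector cells, 355 in those labelled ERBB2 and 375 with EGF as group means, and rose by 0.68 and 0.76. LSM11 was dimmer (131, 178 and 169), and was called in the arrays labelled ERBB2 only (0.41, adjusted p = 0.032, against 0.35 and adjusted p = 0.08218 with EGF). The call was lost in 6 of 21 alternatives (range of adjusted p 0.002617 to 0.1468), among them those without vector replicate 2 (0.30, adjusted p = 0.1468) or 3 (0.40, 0.07422) or ERBB2 replicate 2 (0.32, 0.1404) or 3 (0.39, 0.08173). The direct test between the treatments did not call LSM11 (0.06, adjusted p = 0.8255). LSM12 rose by 0.42 and 0.56, the latter not called without such suffixes (0.18, adjusted p = 0.3301). LSM14A, a P-body protein, rose by 0.25 in the arrays labelled ERBB2 (adjusted p = 0.04184). It lost that call in 10 of 21 alternatives (range of adjusted p 0.01506 to 0.1836), among them those without vector replicate 3 (0.19, adjusted p = 0.1836), vector replicate 2 (0.24, 0.09317), ERBB2 replicate 1 (0.27, 0.05968) or 2 (0.19, 0.1809), or EGF replicate 2 (0.25, 0.05188) or 3 (0.25, 0.05539). Its paralogue LSM14B was dim and not called.

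**Figure D3:**
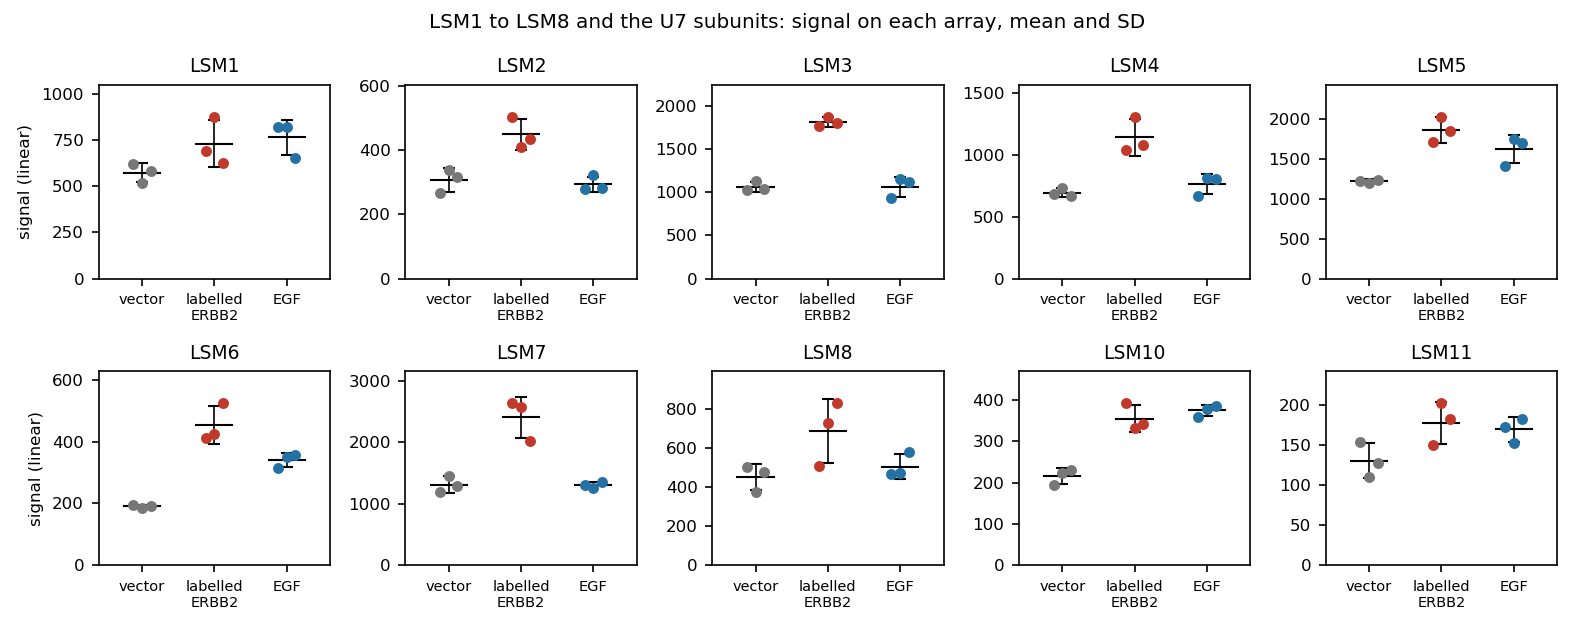
Linear signal (vertical axes, each from 0 and on its own scale) of LSM1 to LSM8, LSM10 and LSM11 on each array, as points, with the group mean and SD in black. For LSM3 and LSM7 the arrays labelled ERBB2 lie above both other groups, while for LSM10 both treated groups lie above vector.

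In the SF3A and SF3B complexes of U2, 5 of 9 genes rose and 1 fell in the arrays labelled ERBB2. By complex, 33.3% of the 3 SF3A genes rose there (median -0.04). Of the 6 SF3B genes 66.7% rose and 16.7% fell (median 0.42), against 20.8% and 25.1% of all genes. With EGF the same shares rose, 33.3% and 66.7%, and none fell, against 17.2% and 19.0% of all genes. SF3A3 read 221, 213 and 230.3 on vector arrays, 379, 375 and 381 on the arrays labelled ERBB2 and 288, 311 and 302 with EGF, so the 3 groups were separate (0.73 and 0.41). SF3B4 rose from 337 ± 27.1 (SD, n = 3) to 553 ± 4.05 and 417 ± 28.1 (0.69 and 0.30), SF3B2 by 0.68 and 0.43 and SF3B3 by 0.56 and 0.34. The EGF call of SF3B4 was lost in 4 of 21 alternatives, such as leaving out vector replicate 1 (0.23, adjusted p = 0.1071) and EGF replicate 2 (0.24, 0.1189). That of SF3B3 was lost in several alternatives, among them those without vector replicate 1 (0.32, adjusted p = 0.05882) or 3 (0.25, 0.1187) or EGF replicate 1 (0.28, 0.09202). Over the 21 alternatives the adjusted p ranged from 0.001509 to 0.1189 for SF3B4 and from 0.001088 to 0.8569 for SF3B3. SF3B5, a small subunit, rose in the arrays labelled ERBB2 (0.28, adjusted p = 0.01673, range 0.00654 to 0.1215), a call lost without vector replicate 1 (0.16, adjusted p = 0.1215) or ERBB2 replicate 1 (0.26, 0.0536). Both SF3B2 calls were lost with probe sets averaged (0.20 and 0.10), and so was the call of SF3B3 in the arrays labelled ERBB2 (0.12, adjusted p = 0.4144). SF3A2 and SF3B6 were not called against vector. For SF3A1 the brightest probe set was not called (-0.25 and -0.16), while its second brightest rose by 0.55 (adjusted p = 1.59e-04) and 0.27 (adjusted p = 0.04999). SF3B3's second probe set, at a vector mean of 136, had negative values that were not called (-0.32 and -0.40).

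SF3B1, the subunit that holds the branch point and is recurrently mutated in blood cancers, gave opposite readings. Its brightest probe set read 2065, 1944 and 1791 on vector arrays, 1625, 1621 and 1727 on the arrays labelled ERBB2 and 2221, 2411 and 2623 with EGF. It fell in the first comparison (-0.22 ± 0.08 SE, adjusted p = 0.03314) and rose in the second (0.32 ± 0.08, adjusted p = 0.003988), and the direct difference was -0.54 (adjusted p = 3.381e-05). Another of its probe sets did the reverse, with means of 559.7, 922 and 423 (0.70, adjusted p = 1.645e-04, and -0.42, adjusted p = 0.01767). Of its 5 probe sets, a further one rose by 0.81 in the arrays labelled ERBB2. The brightest without the suffix _x_at or _s_at was called in neither comparison (-0.03, adjusted p = 0.9017, and 0.22, adjusted p = 0.326). No direction is therefore given for SF3B1 as a gene. The fall was lost in 10 of 21 alternatives (range of adjusted p 0.02156 to 0.9017), and with all probe sets averaged it became a called rise (0.23, adjusted p = 0.02495). The 10 include the fits without vector replicate 1 (-0.17, adjusted p = 0.1322), vector replicate 2 (-0.21, 0.06979), ERBB2 replicate 1 (-0.20, 0.08071) or ERBB2 replicate 2 (-0.20, 0.08802).

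The PRPF genes rose in 6 of 11 cases in each comparison with vector, and none fell (54.5% higher, against 20.8% and 17.2% of all genes). PRPF4, a protein of the U4/U6 snRNP, read 262, 292 and 269 on vector arrays, 484, 615 and 564 on the arrays labelled ERBB2 and 479, 491 and 515 with EGF. Both treated groups lay above vector (0.97 ± 0.10 SE, adjusted p = 2.064e-07, and 0.82 ± 0.10, adjusted p = 4.034e-06). Its partners PRPF3 (0.41 and 0.45) and PRPF31 (0.63 and 0.38), which join U4/U6 to U5, rose as well. PRPF6, the bridging protein of the tri-snRNP, was not called (0.20 and 0.15, adjusted p = 0.2634 and 0.4444). PRPF38A, which acts when the spliceosome is activated, rose by 0.76 and 0.46, and the ubiquitin ligase PRPF19 by 0.60 and 0.63. PRPF8 is the largest U5 protein and lies at the catalytic centre. It read 796, 937 and 851 on vector arrays, 1230.5, 1241 and 1115 on the arrays labelled ERBB2 and 831, 767 and 749.9 with EGF. Only the arrays labelled ERBB2 stood apart (0.47, adjusted p = 1.784e-04, against -0.13, adjusted p = 0.2722), and the direct difference of 0.60 was called (adjusted p = 2.597e-05). PRPF38B was called with EGF (0.45, adjusted p = 0.02322, with 0.24 not called in the other comparison), which was lost in 4 of 21 alternatives (range of adjusted p 0.002448 to 0.1248), among them those without vector replicate 2 (0.33, adjusted p = 0.1216) or 3 (0.40, 0.08721) or EGF replicate 3 (0.36, 0.1248). PRPF18, PRPF39 and PRPF40B were not called.

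Of 10 SR protein genes, 5 rose and 2 fell in the arrays labelled ERBB2 (50.0% and 20.0%, against 20.8% and 25.1% of all genes). With EGF 3 rose and none fell (30.0% higher, against 17.2%). SRSF3, the smallest SR protein, read 2702, 2585 and 2552 on vector arrays, 5403, 5342 and 5726 on the arrays labelled ERBB2 and 4339, 4493 and 4303 with EGF. The 3 groups were separate (1.07 ± 0.06 SE, adjusted p = 5.538e-11, and 0.74 ± 0.06, adjusted p = 2.387e-08). Its brightest probe set without the suffix _x_at or _s_at, at a vector mean of 71.6, was called in no comparison (-0.21, -0.20 and -0.02). SRSF1, the founding member of the family, rose from 2262 ± 193 (SD, n = 3) to 3318 ± 185 and 3199 ± 139 (0.55 and 0.50), and its EGF call was lost with probe sets averaged (0.11, adjusted p = 0.4197). Likewise SRSF7, without such suffixes, was called in neither comparison (0.22, adjusted p = 0.1145, and -0.27, adjusted p = 0.05879). SRSF8 rose by 0.64 in the arrays labelled ERBB2, a call lost without such suffixes (0.23, adjusted p = 0.1516). Its EGF change of 0.33 (adjusted p = 0.05504) was called in 8 of 21 alternatives, among them those without ERBB2 replicate 2 (adjusted p = 0.02327) or 3 (0.0138) or EGF replicate 1 (0.39, 0.04892).

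SRSF6 separated the treatments. Its signals were 668, 631 and 679 on vector arrays, 1399, 1388 and 1343 on the arrays labelled ERBB2 and 791, 717 and 696 with EGF. The arrays labelled ERBB2 were high (1.04 ± 0.08 SE, adjusted p = 2.67e-09), and the EGF arrays lay just above vector (0.15 ± 0.08, adjusted p = 0.1811, but called with equal array medians at 0.31, adjusted p = 0.008188). The direct difference was 0.89 (adjusted p = 8.411e-08). Its second probe set, at means of 417, 419 and 469, was not called in any comparison.

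SRSF11, an SR-related protein found with U1 and U2, showed the largest fall of any member against vector. It read 2408, 1716 and 2179.5 on vector arrays, 953, 1462 and 1065 on the arrays labelled ERBB2 and 2431, 2694 and 2511 with EGF. The arrays labelled ERBB2 were low and all EGF arrays lay above all vector arrays. The changes were -0.86 ± 0.13 (SE, adjusted p = 1.566e-05) and 0.29 ± 0.13 (adjusted p = 0.09962), and the direct difference was -1.15 (adjusted p = 1.164e-06). The EGF change was called in 4 of 21 alternatives, among them those without vector replicate 1 (0.39, adjusted p = 0.04003) or ERBB2 replicate 2 (0.29, 0.0388). A second probe set had the same signs (-0.38 and 0.25), but another, at means of 273, 94.6 and 138, fell in both (-1.38 and -0.91, adjusted p = 1.715e-05 for the latter). SRSF4 fell in the arrays labelled ERBB2 (724 ± 30.4 to 606 ± 45.8, -0.25, adjusted p = 0.02558). It was lost in 7 of 21 alternatives (range of adjusted p 0.009962 to 0.7528). They include the fits without vector replicate 2 (-0.24, adjusted p = 0.06585), vector replicate 3 (-0.23, 0.0862), ERBB2 replicate 1 (-0.21, 0.08819) or ERBB2 replicate 2 (-0.23, 0.07362). SRSF5 stood at 1154, 1147 and 1161 as group means and was not called, and neither were SRSF10 and the dim SRSF12.

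**Figure D4:**
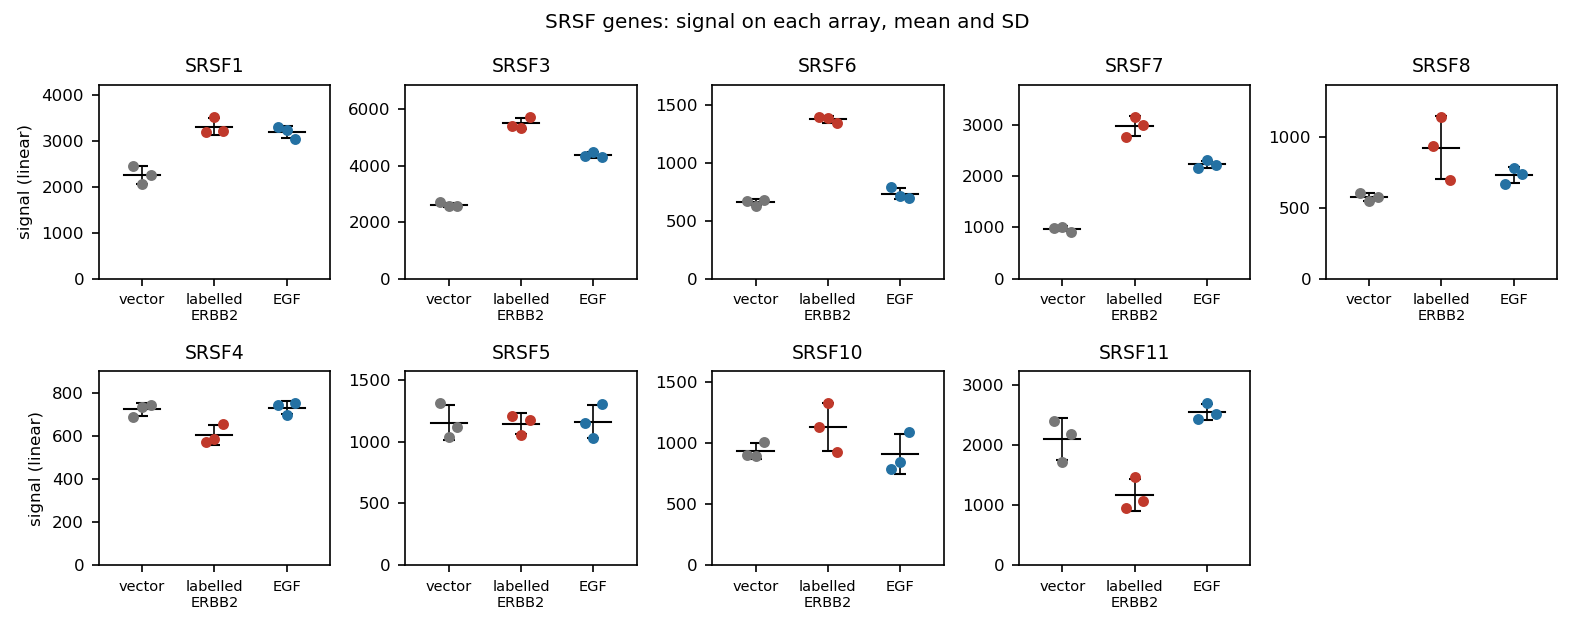
Linear signal (vertical axes, each from 0 and on its own scale) of 9 SRSF genes on each array, as points, with the group mean and SD in black. SRSF3 and SRSF7 are higher in both treated groups and highest in the arrays labelled ERBB2, SRSF6 is high in the arrays labelled ERBB2 alone, and SRSF11 is low there.

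HNRNP genes rose in 12 of 21 cases in the arrays labelled ERBB2 and fell in 4 (57.1% and 19.0%, against 20.8% and 25.1% of all genes). With EGF 11 rose and 1 fell (52.4% and 4.76%, against 17.2% and 19.0%). HNRNPA3, which binds RNA through a pair of recognition motifs like HNRNPA1, read 470.1, 437 and 378 on vector arrays, 776, 972 and 892 on the arrays labelled ERBB2 and 588, 602 and 612 with EGF. The groups were separate (1.01 and 0.48). HNRNPA2B1 (0.53 and 0.62), HNRNPA0 (0.64 and 0.50), HNRNPM (0.58 and 0.45), HNRNPU, a nuclear scaffold protein (0.29 and 0.46), and HNRNPDL (0.47 and 0.28) rose in both. For HNRNPM both calls were lost with probe sets averaged (0.22 and 0.03), and its brightest probe set without the suffix _x_at or _s_at, which marks possible binding to several transcripts, had the opposite sign (-0.44 and -0.51, not called). HNRNPA2B1 with EGF was at 0.07 with probe sets averaged and at -0.30 without such suffixes, neither called, and the call of HNRNPU in the arrays labelled ERBB2 was lost without a variance trend (adjusted p = 0.06977). The EGF call of HNRNPDL was lost in 8 of 21 alternatives (range of adjusted p 0.002668 to 0.1761), among them those without vector replicate 2 (0.23, adjusted p = 0.1263) or 3 (0.22, 0.1589) or EGF replicate 2 (0.26, 0.09734) or 3 (0.21, 0.1702). HNRNPF and HNRNPH3, which bind runs of G, rose by 0.62 and 0.69 in the arrays labelled ERBB2 and by 0.72 and 0.37 with EGF. HNRNPUL2 was called in the arrays labelled ERBB2 (0.61, against 0.22 with EGF, adjusted p = 0.2011), a call lost with probe sets averaged (0.15, adjusted p = 0.4888).

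HNRNPR, a nuclear RNA-binding protein, was higher with EGF than in the arrays labelled ERBB2 at its brightest probe set. It read 1408, 1493 and 1392 on vector arrays, 1899, 2128 and 1946 on the arrays labelled ERBB2 and 2438, 2491 and 2498 with EGF. The 3 groups were separate, at 0.47 and 0.78, and the direct difference was -0.31 (adjusted p = 0.002557). That difference was not called without a variance trend (adjusted p = 0.06394), with probe sets averaged (-0.06, 0.6337) or without the suffixes (-0.14, 0.618), and without them the changes from vector were not called either (0.15 and 0.29).

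HNRNPA1, a splicing repressor, went the other way from most of the family. Its brightest single-gene probe set read 2301, 1743 and 2106 on vector arrays, 1196, 1085 and 1235 on the arrays labelled ERBB2 and 1012, 1171 and 1276 with EGF. Both treated groups lay below vector (-0.79 ± 0.10 SE, adjusted p = 2.604e-06, and -0.82 ± 0.10, adjusted p = 3.356e-06). This probe set is of the kind marked as able to bind related transcripts, and HNRNPA1 has many processed pseudogenes, so the fall is uncertain as a value for the gene. Its other 2 probe sets, both below 90 as group means, were not called. HNRNPUL1 read 549, 826 and 625 on vector arrays, 459, 410.3 and 425 on the arrays labelled ERBB2 and 624, 641 and 661 with EGF. It was low in the arrays labelled ERBB2 (-0.59, adjusted p = 3.438e-04), with -0.03 in EGF arrays (adjusted p = 0.8656), and the direct difference was -0.56, or -0.17 (adjusted p = 0.354, not called) with probe sets averaged.

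HNRNPL, which binds CA repeats, went from 554 ± 44.7 (SD, n = 3) to 437 ± 111 in the arrays labelled ERBB2, with overlapping groups (-0.35, adjusted p = 0.04033). A second probe set fell by 0.44 on the log2 scale (adjusted p = 0.008835). The first call was lost in 8 of 21 alternatives (range of adjusted p 7.367e-04 to 0.2052), among them those without vector replicate 2 (-0.35, adjusted p = 0.07984), vector replicate 3 (-0.30, 0.1426), ERBB2 replicate 2 (-0.24, 0.2052) or ERBB2 replicate 3 (-0.27, 0.1641). HNRNPC, which binds U-rich tracts, was called lower by a small amount (-0.19, adjusted p = 0.03373). It was lost in 8 alternatives that kept its direction. Among them were the fits without vector replicate 2 (-0.18, adjusted p = 0.07103) or 3 (-0.16, 0.134) or ERBB2 replicate 2 (-0.15, 0.1252) or 3 (-0.20, 0.06341), and over all 21 the adjusted p ranged from 2.998e-05 to 0.474. Another HNRNPC probe set, at a vector mean of 259.7, rose by 0.62 and 0.45. HNRNPK was not called at its brightest probe set (0.18 and 0.19), while its second one, from a mean of 2176, rose by 0.44 and 0.49. The brightest was called higher in both comparisons in some alternatives. Among them were quantile normalization (0.31, adjusted p = 0.002613, and 0.22, 0.03096) and equal array medians (0.23, 0.02179, and 0.35, 0.001724). HNRNPH1, HNRNPLL, HNRNPA3P1 and HNRNPD-DT were not called against vector.

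Both treated groups were then compared with each other. The groups differ in the virus and in 2 h of EGF, so kind and duration of the stimulus cannot be told apart. Of the 76 members 23 were called higher and 7 lower in the arrays labelled ERBB2, or 30.3% and 9.21%, against 12.8% and 16.1% of all genes (28.9% in either direction). The median was 0.15, against 0.01 for all genes. With equal array medians 16 were higher and 12 lower, the share of higher among called members went from 76.7% to 57.1%, and the median was 0.04 while that of all genes was -0.10. Among the called members, the largest differences upward were SRSF6 (0.89), LSM7 (0.87), LSM3 (0.77), SNRPB (0.73) and PRPF8 (0.60). The largest downward among them were SRSF11 (-1.15), HNRNPUL1 (-0.56), SF3B1 (-0.54, by its brightest probe set), HNRNPL (-0.42) and HNRNPR (-0.31). The call of HNRNPL was lost in 5 of 21 alternatives (range of adjusted p 5.958e-04 to 0.1415), among them those without ERBB2 replicate 2 (-0.30, adjusted p = 0.1415) or 3 (-0.34, 0.1216) or EGF replicate 3 (-0.33, 0.1372). In the SNRP family 7 of 12 and in the LSM family 6 of 13 genes were called higher in the arrays labelled ERBB2. None of these families' genes was called lower, though some had negative differences that were not called. In the PRPF family 1 of 11 was called higher. These family counts depended on the scaling and on the variance trend. With equal array medians SNRPB2 (-0.28, adjusted p = 0.01535), SNRPD1 (-0.35, 0.01588) and SNRPE (-0.28, 0.003837) were called lower. The higher calls of SNRPD3, SNRPF, LSM6 and LSM8 ended there. They also ended without a variance trend, as did those of SNRPC (adjusted p = 0.09293) and SNRPD2 (0.07393).

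Further probe sets of the same genes often read otherwise. In the comparison of the arrays labelled ERBB2 with vector, the called members had 97 further probe sets past the filter, of which 45 were called the same way, 7 the other way and 45 not at all (38.7% of all 32768 probe sets were called in either direction). With EGF the numbers were 32, 5 and 31 of 68, against 28.8% of all probe sets called. Probe sets called in both directions occurred in 7 genes (HNRNPC, HNRNPD, HNRNPDL, SF3B1, SNRPB2, SRSF1 and SRSF10) in the arrays labelled ERBB2 and in 6 with EGF (HNRNPC, HNRNPD, SF3B1, SNRPB2, SRSF1 and SRSF7).

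HNRNPD shows the pattern at high signal. Besides its brightest probe set, 4 others were called higher in both comparisons (by at least 0.84 in the arrays labelled ERBB2 and by 0.72 to 1.24 with EGF), while 1 went from a mean of 383 to 164 and 195 (-1.15, adjusted p = 1.469e-07, and -0.92, adjusted p = 5.503e-06). For SRSF1, 4 probe sets rose in both comparisons and 1 went from 309 to 194 and 208 (-0.63, adjusted p = 3.154e-04, and -0.54, adjusted p = 0.002004). For SRSF7 a dim probe set at 51 in vector and 53.7 in the arrays labelled ERBB2 fell to 17.6 with EGF (adjusted p = 0.001337), against a rise of 1.19 for the brightest. SRSF10, whose brightest probe set was not called, had 2 others that rose in the arrays labelled ERBB2 (0.74 and 0.39) and 1 that fell there and rose with EGF (-0.46 and 0.40). HNRNPH1 had a probe set with means of 3294, 2293 and 4177 that fell in the arrays labelled ERBB2 and rose with EGF (-0.52, adjusted p = 5.595e-06, and 0.34, adjusted p = 9.869e-04). Probe positions were not used here, and which transcripts these probe sets read was not tested.

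**Figure D5:**
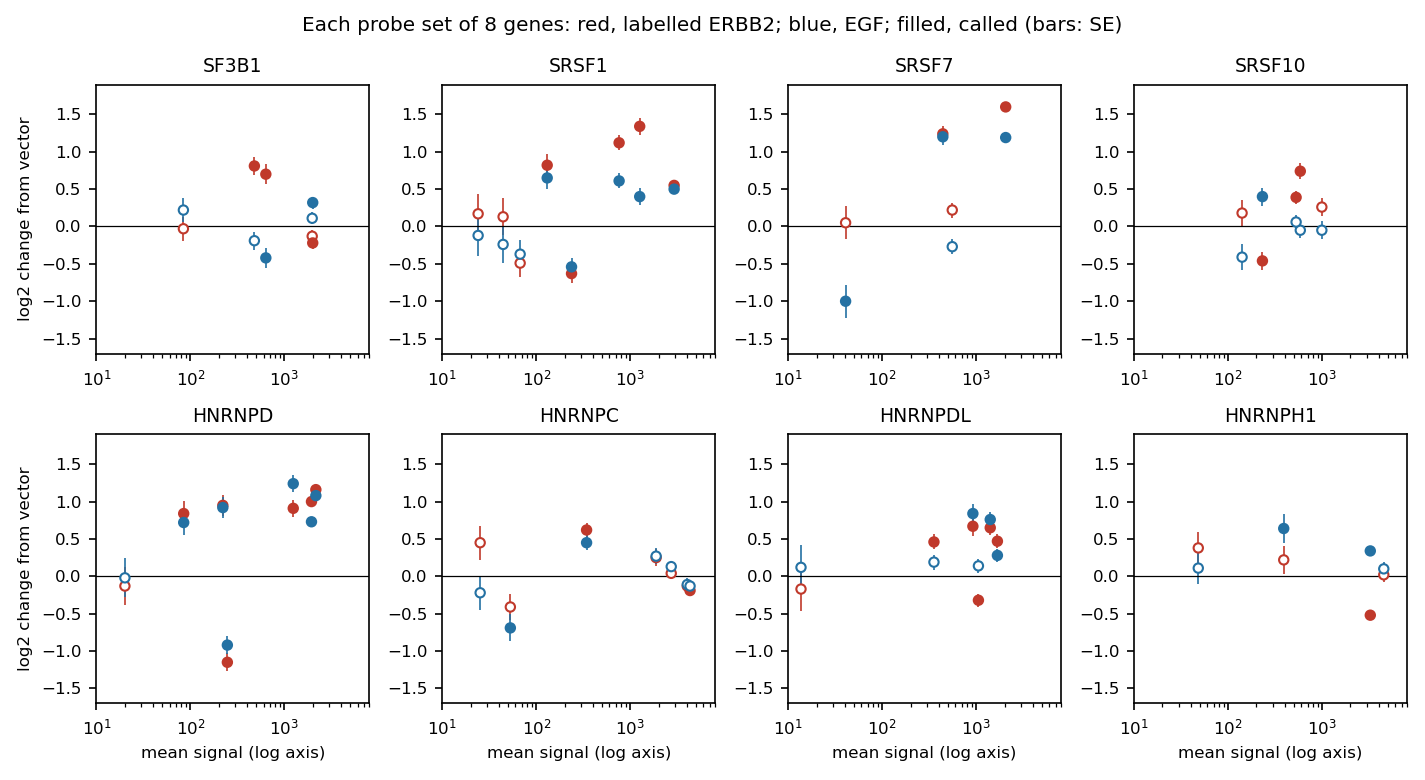
Log2 change from vector (vertical axes) of every tested probe set of 8 genes against its mean signal (horizontal axes, log scale), for the arrays labelled ERBB2 (red) and with EGF (blue), with SEs from limma as bars and filled points where called. In HNRNPD and SRSF1 a probe set lies below 0 in both colours while brighter ones lie above it, and in SF3B1 the colours change order between probe sets.

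The other splicing genes were read from 5 lists, beside shares over all genes of 20.8% higher and 25.1% lower in the arrays labelled ERBB2 and of 17.2% and 19.0% with EGF. Of 61 further spliceosome proteins, 32 rose and 8 fell in the arrays labelled ERBB2 (52.5% and 13.1%, median 0.30), and 27 rose and 2 fell with EGF (44.3% and 3.28%, median 0.20). PPIL1, a cyclophilin of the activated spliceosome, rose from 206 ± 41.4 (SD, n = 3) to 787 ± 159.8 and 632 ± 32 (1.85 and 1.56). SNRNP40, a U5 protein, rose by 1.17 and 1.19. PPIH, a cyclophilin bound to U4/U6, rose in the arrays labelled ERBB2 (1.23) and was at 0.10 with EGF (adjusted p = 0.4821, direct difference 1.12). CWC22, which recruits the exon junction complex, rose with EGF (1.02) and was at -0.02 in the arrays labelled ERBB2 (adjusted p = 0.9349, direct difference -1.04). SNRNP48, of the minor spliceosome (-0.95 and -1.01), and SYF2 (-0.74 and -0.69) fell in both. LUC7L, a U1-associated protein, fell in the arrays labelled ERBB2 (-0.73) and rose with EGF (0.52, adjusted p = 0.01212).

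Genes of snRNP assembly rose in 13 of 21 cases and fell in 1 in the arrays labelled ERBB2 (61.9% and 4.76%, median 0.54; all genes 20.8% and 25.1%). With EGF 16 rose and 1 fell (76.2% and 4.76%, median 0.59; all genes 17.2% and 19.0%). In the SMN complex, which loads Sm rings onto RNA, GEMIN4 rose from 137 ± 13.7 (SD, n = 3) to 369 ± 32.7 and 356 ± 13.7 (1.33 and 1.29), GEMIN2 by 1.31 and 0.85, DDX20 by 1.19 and 0.93 and GEMIN5 by 1.10 and 1.48. GEMIN8 fell with EGF (-0.84) and was at -0.39 in the arrays labelled ERBB2 (adjusted p = 0.0668). WDR77, partner of the methyltransferase that modifies Sm proteins, rose by 1.19 and 1.04. SNAPC1, of the complex that drives snRNA gene transcription, rose by 0.60 and 1.02. SNAPC3, of the same complex, was called lower in the arrays labelled ERBB2, with overlapping groups (-0.46, adjusted p = 0.02918).

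Of 29 splicing regulators outside the prefix families, 10 rose and 10 fell in the arrays labelled ERBB2 (34.5% each, against 20.8% and 25.1% of all genes, median -0.03). With EGF 7 rose and 5 fell (24.1% and 17.2%, median -0.04), shares near the 17.2% and 19.0% of all genes. The SR-like activator TRA2B (from a mean of 2234 to 4488 and 4314), SYNCRIP, a relative of HNRNPR (1.11 and 0.85), and the coactivator SRRM1 (0.79 and 0.63) rose. SRRM2, a scaffold of nuclear speckles, fell from 1305 ± 142 (SD, n = 3) to 372 ± 109.6 and 897 ± 74.4 (-1.80 and -0.53, direct difference -1.27). MBNL2 (-1.34 and -1.19), TIA1 (-0.84 and -0.58) and RBFOX2 (-0.68 and -0.64) fell in both.

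Of 10 kinases and related regulators of splicing factors, 3 rose and 5 fell in the arrays labelled ERBB2 (30.0% and 50.0%, against 20.8% and 25.1% of all genes). With EGF 3 rose and 3 fell (30.0% each, against 17.2% and 19.0%). The nuclear SR protein kinases CLK1 (-0.99 and -0.38) and CLK4 (-1.01 and -0.53) fell in both, and CDK13 fell in the arrays labelled ERBB2 (-0.99). SRPK1, a largely cytoplasmic SR protein kinase, rose from 601 ± 28.8 (SD, n = 3) to 868 ± 43.4 and 1098 ± 67.7 (0.52 and 0.85). Its paralogue SRPK2 had a mean of 385 in vector cells and fell to 206 in those labelled ERBB2 (-0.85, adjusted p = 1.994e-06) and was at 320.5 with EGF (-0.25, adjusted p = 0.08843). CDK12 rose by 0.60 and 0.66 and AKT1 by 0.54 and 0.39. Of 8 exon junction complex genes 6 rose and 1 fell in the arrays labelled ERBB2 (75.0% and 12.5%, against 20.8% and 25.1% of all genes), and 5 rose and 2 fell with EGF (62.5% higher, against 17.2% of all genes, where 19.0% fell). MAGOHB (1.41 and 1.21), the export factor ALYREF (1.27 and 1.02) and RBM8A (0.94 and 0.88) rose, and PNN, a partner of SR proteins, fell from 4528 ± 696 (SD, n = 3) to 2071 ± 220.0 and 2379 ± 92.5 (-1.12 and -0.91).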

How the data were processed

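Total RNA of 9 MCF10A samples was hybridised to 1 array each. The authors deposited linear signal intensities, 1 per probe set on each array. The submitters' processing notes name MAS5 without settings. The mean after trimming 2% at each end was 100.03 on all arrays, so each array was scaled as a whole, which partly absorbs shifts of many genes. Detection calls were not used here.

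Probe sets were named through the platform's annotation (41091 with 1 gene, 1801 with several and 11721 with none, besides 62 controls). All 77 members matched the RefSeq table. Values were analysed as log2(signal + 16). The dimmest probe sets, up to the 40th percentile of the mean, were dropped, and limma 3.58.1 in R 4.3.3 (lmFit, eBayes with a variance trend) was fitted to the 3 groups together, leaving 6 residual degrees of freedom. For 1 gene by itself, the smallest p of an exact permutation test of 3 against 3 is 0.1. Signals carry SDs and log2 changes carry SEs. The script was tested on simulated data. The number of arrays limits the precision.

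Same-numbered replicates did not deviate together, so no pairing was used. The members, gene lists and comparisons were chosen with earlier results of these data known. Members were named per family and comparison by the 3 largest called rises and falls with separate groups, together with subunits of known complexes, the 5 largest direct differences each way and up to 3 genes per direction from each list. HNRNPK's, HNRNPH1's and other further probe sets were singled out after their values were seen. Alternatives were pseudocounts of 1 or 64, dropping the filter or using the 60th percentile, eBayes without a trend, array weights, equal array medians, quantile normalization, fits on the arrays compared alone, a block for the replicate number, fits without each array in turn, averaging a gene's probe sets and the brightest probe set without the suffix _x_at or _s_at. Motifs were searched in RefSeq promoter sequences (GRCh38.p14).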

Additional observations from a re-analysis of the deposited data

How the results depend on the processing

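Counts of members that rose against vector stayed within 1.5 times under all 21 alternatives, but falls were few and less stable. In the arrays labelled ERBB2, 7 falls became 4 with no filter on low means or with a gene's probe sets averaged, and 3 with equal array medians or eBayes without a trend. With EGF, 3 falls became 1 with equal array medians or without a trend. In the direct comparison, 7 lower became 12 with equal array medians and 3 without a trend or with probe sets averaged, and 23 higher became 15 without a trend. Leaving out 1 array gave 45 to 49 rises and 3 to 7 falls in the arrays labelled ERBB2 (3 without vector replicate 2, and 4 without vector replicate 3 or ERBB2 replicate 2). It gave 33 to 39 rises and 3 falls with EGF, and 19 to 23 higher and 5 to 7 lower directly, with medians of 0.46 to 0.48, 0.27 to 0.33 and 0.13 to 0.16.

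The median in the arrays labelled ERBB2 was 0.52 with equal array medians and 0.38 with probe sets averaged or without suffixes _x_at and _s_at. With EGF it was 0.45, 0.17 and 0.19 in that order, and 0.26 with quantile normalization. Directly it was 0.04 with equal array medians and 0.18 with quantile normalization. The replicate block gave 49 rises and 7 falls, 38 and 3, and 23 and 7, and changed no count by over 1.5 times.

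Of the called members, 32 of 55, 17 of 40 and 14 of 30 kept their call in every alternative. Signs turned only with another choice of probe set. With probe sets averaged, HNRNPC (0.09), SF3B1 (0.23) and SNRPB2 (-0.23) turned in the arrays labelled ERBB2, SF3B3 (-0.03) and SNRPB2 (-0.18) with EGF, and SF3B1 (0.22) and SRSF4 (0.06) directly. Without suffixes, HNRNPC (0.62), HNRNPD (-1.15), HNRNPM (-0.44), SF3B3 (-0.32), SNRPA1 (-0.07) and SRSF3 (-0.21) turned in the arrays labelled ERBB2. So did HNRNPA1 (0.18), HNRNPA2B1 (-0.30), HNRNPD (-0.92), HNRNPM (-0.51), SF3B3 (-0.40), SRSF3 (-0.20) and SRSF7 (-0.27) with EGF, and SRSF3 (-0.02) directly. The probe sets without suffixes are dimmer, and without detection calls it is unknown which dim signals exceed background. Some were nevertheless called in the turned direction. These were HNRNPC in the arrays labelled ERBB2 (adjusted p = 2.998e-05) and HNRNPD there (1.469e-07) and with EGF (5.503e-06).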
